A study of Mus musculus with 2 samples.

Results

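The nuclear hormone receptors described here are 32 genes found by their symbols among the 31040 genes of a single-nucleus count matrix, and each symbol matched 1 row. They belong to 13 families. The matrix comes from the prefrontal cortex of wild type C57BL/6 mice, male and 2 months old, that were given intraperitoneal METH (methamphetamine, a stimulant) at 5 mg/kg or saline over 14 days, with tissue of 3 mice in each group and 1 sample per group, METH and Control. Barcodes end in 1 or 2, which separates 2 libraries. Since the labels do not say which of these is METH, no effect of METH was computed, and the names library 1 and library 2 are used throughout. The matrix was treated as 1 pooled sample, and the values the results turn on are also given for each library. All intervals cover counting error only, because nuclei are not replicates.

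Nuclear receptors are transcription factors that bind DNA through paired zinc fingers and change their activity when a small lipophilic ligand enters a pocket of the protein. Many of them work as heterodimers with a retinoid X receptor (RXR), and each dimer recognises a pair of short hexamer motifs whose spacing differs between receptors. Ligands include retinoic acid, thyroid hormone, corticosteroids, sex steroids, oxysterols and fatty acids, while several members have no established natural ligand and are called orphan receptors. In the brain, retinoid receptors are known for their place in the striatum, corticosteroid receptors for the response to stress, and COUP-TF and ROR receptors for the patterning of cortical areas and layers.

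Promoter sequences of 30 of the 32 genes were found in a RefSeq table of the GRCm38.p6 mouse genome, which holds 50 windows for them. The 250 bases before an annotated start site of 2 members are shown, because these receptors, Rarb (retinoic acid receptor beta) and Rxrg (retinoid X receptor gamma), were the members called highest in striatal projection neurons (values follow). Both windows lie inside the annotated gene and not before its outermost start (Rarb chr14:16430839-16819156, Rxrg chr1:167598384-167639623). Capitals mark a core hexamer on either strand, which is AGGTCA or the variant GGGTCA, the variant AGTTCA or the variant GGTTCA.
Rarb, chr14:16575477-16575726, minus strand: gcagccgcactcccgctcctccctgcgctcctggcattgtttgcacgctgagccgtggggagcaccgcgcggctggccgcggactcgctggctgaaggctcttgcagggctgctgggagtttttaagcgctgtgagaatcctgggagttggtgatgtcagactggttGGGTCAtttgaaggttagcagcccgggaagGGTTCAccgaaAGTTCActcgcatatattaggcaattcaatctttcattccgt
Rxrg, chr1:167618015-167618264, plus strand: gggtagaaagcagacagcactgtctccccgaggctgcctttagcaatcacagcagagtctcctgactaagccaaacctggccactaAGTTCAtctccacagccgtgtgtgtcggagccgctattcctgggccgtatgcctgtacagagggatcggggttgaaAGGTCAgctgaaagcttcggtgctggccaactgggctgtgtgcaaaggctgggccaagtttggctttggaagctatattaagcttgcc
The Rarb window holds 3 core hexamers, and the last pair is a direct repeat with 5 bases between its hexamers (DR5), the spacing known for retinoic acid receptors bound with RXR. A DR5 of these hexamers, on either strand, was found in 0.0883% of all 32851 promoter windows of this length and, among the 50 windows of members, only in that of Rarb. At least 1 core hexamer was present in 38.6% of all windows and in 19 of the 50 windows of members. The Rxrg window shown, the one with more hexamers of the 2 in the table, holds 2 hexamers and no direct repeat of 1 to 5 bases' spacing. A match describes the letters of the window and says nothing about binding.

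Of 20766 barcodes, 18002 nuclei remained after a minimum of 500 genes and the removal of predicted doublets (889 in library 1 and 660 in library 2), with a median of 3047 UMIs (unique molecular identifiers, counts of captured RNA molecules) per nucleus in library 1 and 2924 in library 2. The libraries shared 154 barcode sequences. Clusters were named from fixed markers that hold no member, and a class name stands for nuclei like that class by these markers. Classes of at least 100 nuclei were excitatory neurons (8013 nuclei), oligodendrocytes (3046), inhibitory neurons (2855), striatal projection neurons (1407), microglia (881), oligodendrocyte precursors (368), astrocytes (309), neuroblasts (294) and differentiating oligodendrocytes (116), and 3.33% of nuclei stayed unnamed. Fibroblasts (70) and endothelial cells (44) were under that size and entered no comparison. The labels name the prefrontal cortex alone, whereas striatal projection neurons are neurons of the basal ganglia. They made up 5.34% of nuclei of library 1 and 9.80% of library 2, and astrocytes made up 0.625% (50 nuclei) and 2.59% (259 nuclei). Depth differed between classes, with a median of 693 UMIs in microglia and 4375 in excitatory neurons. Levels are UMIs of a gene summed over a class relative to all UMIs of that class, in the usual unit CPM, with exact Poisson 95% intervals. A gene was taken as present in a class where its lower bound exceeded its free RNA level, the most that RNA from broken cells could add to any nucleus, estimated from Slc17a7, the vesicular glutamate transporter of excitatory neurons, and from myelin genes.

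Receptors differed widely in how evenly they were spread over classes. A member was called highest in 1 class where its CPM there was at least 2-fold that of the next class, the same class was highest in each library, and the class lay above the free RNA level. Of the 31 members with at least 50 UMIs, 6 were called (19.4%), beside 15.2% of 15884 genes tested by the same rule. That background includes the genes that formed and named the clusters, from which all members were kept out. The 6 were Rarb and Rxrg in striatal projection neurons (1.27% of genes tested were called there), Rorb, Ppara and Nr2e1 in astrocytes (2.52%) and Nr2f2 in inhibitory neurons (0.611%). For 16 of the 31 members the highest class above free RNA also had the most CPM of all classes in each library, a count without a background share here. The median ratio of the highest to the next class was 1.15 over the 31 members and 1.11 over all genes tested. Both medians include genes above free RNA in no class, among the members Nr1h3 and Nr5a2. For such genes excitatory neurons stood in as the highest class. Just outside the 2-fold limit was Nr6a1 in microglia at 1.99 (95% interval 1.55 to 2.58), and just inside it Rxrg at 2.11 (1.29 to 3.68). Vdr, the vitamin D receptor, had 23 UMIs over the named classes and was not tested.

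**Figure D1:**
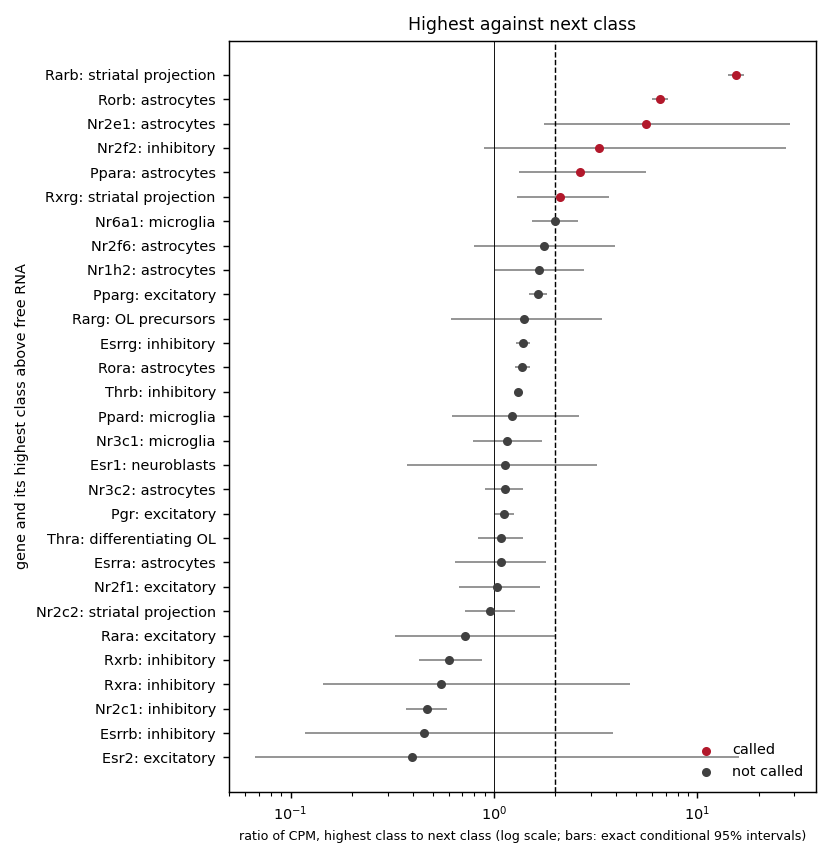
Ratio of CPM in the highest class above free RNA to the next class for 29 receptor genes, on a log axis, with exact conditional 95% intervals as bars and the 2-fold limit as a dashed line. Rarb has the highest ratio at 15.4 (9.05 with doublets kept), the other 5 called genes (red) lie between 2.11 and 6.58, and values under 1 belong to genes whose next class had more CPM but did not exceed its free RNA level.

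**Figure D2:**
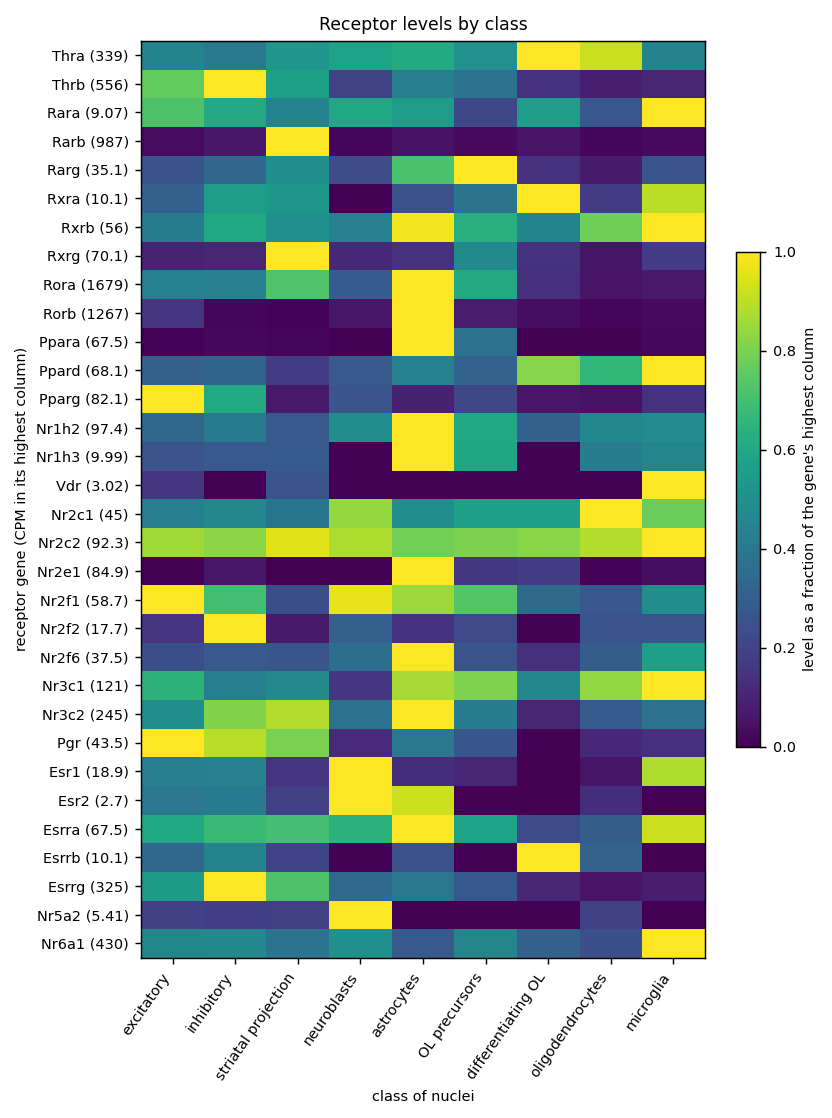
Level of each of the 32 receptor genes (rows) in the 9 classes of at least 100 nuclei (columns), as a fraction of the gene's highest column, whose CPM is given beside the symbol. Rarb, Rorb, Ppara and Nr2e1 are bright in 1 column, while Nr2c2 is nearly even, from 72.4 CPM in astrocytes to 92.3 CPM in microglia.

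Among the receptors of retinoic acid, Rarb RNA was concentrated in striatal projection neurons, the spiny output cells of the striatum. Rarb reached 987 CPM there (956 to 1019, 3844 UMIs), with 945 CPM in library 1 and 1003 in library 2. The next class, inhibitory neurons, had 63.9 CPM (54.4 and 71.6 in libraries 1 and 2), which made the ratio 15.4 (14.1 to 16.9). The ratio was 9.05 with doublets kept and 9.52 at a minimum of 1000 genes, both outside that interval. The libraries were close in striatal projection neurons and far above every other class in both. Excitatory neurons had 30.1 CPM, astrocytes 47.5 CPM and differentiating oligodendrocytes 50.7 CPM, all 3 above free RNA. Neuroblasts (13.5 CPM), oligodendrocyte precursors (25.4 CPM), oligodendrocytes (16.7 CPM) and microglia (24.2 CPM) were not above it. After each nucleus was thinned to 500 UMIs, 37.1% of striatal projection neurons had a Rarb UMI (34.6 to 39.7%, exact Clopper-Pearson), beside 0.722% of oligodendrocytes (0.453 to 1.09%), with median depths of 2696 and 810 UMIs before thinning. The gene lies at chr14:16430839-16819156 (GRCm38, GENCODE vM21) and overlaps Top2b and Gm48162 on the opposite strand, and whether counting used the strand is not given in the sources used here.

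The other retinoic acid receptors were low and spread over several classes. Rara (retinoic acid receptor alpha) was above free RNA in excitatory and inhibitory neurons, with 6.54 CPM in excitatory neurons (7.24 and 5.91 in libraries 1 and 2). Its CPM in microglia was 9.07 (13.8 and 5.37), not above free RNA. Rarg (retinoic acid receptor gamma) had 35.1 CPM in oligodendrocyte precursors (59.5 and 23.2 in libraries 1 and 2) and 25.0 CPM in astrocytes (16.5 and 26.5), a ratio of 1.41 (0.616 to 3.41). The highest class of Rarg was thus not the same in the libraries.

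Of the retinoid X receptors, the shared dimer partners, Rxrg had its highest level in the same class as Rarb. Rxrg had 70.1 CPM in striatal projection neurons (62.0 to 78.9), with 80.8 in library 1 and 66.0 in library 2. Oligodendrocyte precursors came next with 33.2 CPM (19.3 to 53.1, 17 UMIs), 35.7 in library 1 and 31.96 in library 2. In excitatory neurons the level was 6.68 CPM, in inhibitory neurons 7.60, in neuroblasts 8.11, in astrocytes 9.99, in differentiating oligodendrocytes 10.1, in oligodendrocytes 3.90 and in microglia 12.1, and of these only both neuron classes were above free RNA. A Rxrg UMI was present in 3.70% of thinned striatal projection neurons (2.77 to 4.82%) and in 0.131% of oligodendrocytes (0.0358 to 0.336%). Under 2 of the other 8 graph settings of the clustering, both with 30 neighbours, Rxrg was not called, and at a minimum of 1000 genes its ratio was 5.64. Rxrb (RXR beta) was above free RNA in 2 of 9 classes, with 33.6 CPM in inhibitory neurons (34.5 and 33.0 in libraries 1 and 2) and 56.0 CPM in microglia (45.0 and 64.5), not above free RNA. Rxra (RXR alpha) reached 5.59 CPM in inhibitory neurons (5.54 and 5.63) and 10.1 CPM in differentiating oligodendrocytes (14.3 and 7.84), the latter not above free RNA.

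Rora and Rorb, the ROR receptors, bind DNA as monomers, and Rorb is known as a mark of layer 4 neurons of the neocortex. Both had their highest CPM in astrocytes, but only Rorb was called. Rorb reached 1267 CPM in astrocytes (1159 to 1382, 507 UMIs), 1171 in library 1 and 1284 in library 2. Excitatory neurons followed with 193 CPM (188 to 197), 193 in library 1 and 192 in library 2, for a ratio of 6.58 (6.00 to 7.20), or 4.33 at a minimum of 1000 genes. Astrocytes of both libraries lay above every other class. Rorb was also above free RNA in oligodendrocyte precursors (103.5 CPM), neuroblasts (75.7 CPM) and inhibitory neurons (20.9 CPM). It was not above it in differentiating oligodendrocytes (45.6 CPM), microglia (30.2 CPM), oligodendrocytes (24.1 CPM) or striatal projection neurons (10.01 CPM). Of thinned nuclei, 40.5% of astrocytes (34.9 to 46.2%), 7.76% of excitatory neurons (7.19 to 8.37%) and 0.284% of striatal projection neurons (0.0775 to 0.726%) held a Rorb UMI.

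Rora was more widely spread than Rorb. It had 1679 CPM in astrocytes (1583 in library 1 and 1696 in library 2), 1217 CPM in striatal projection neurons (1137 and 1248) and 1013 CPM in oligodendrocyte precursors, and a ratio of the highest to the next class of 1.38 (1.27 to 1.495). Its lowest level was 86.8 CPM in oligodendrocytes. The interval of the ratio lay above 1 and below 2, so that astrocytes exceeded the next class beyond counting error without reaching the 2-fold limit.

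The PPAR receptors, sensors of fatty acids that pair with RXR, had different highest classes. Ppara, known for driving fatty acid oxidation, was called in astrocytes at 67.5 CPM (44.5 to 98.1, 27 UMIs), with 65.9 in library 1 and 67.7 in library 2. Oligodendrocyte precursors had 25.4 CPM (13.5 to 43.4), 47.6 in library 1 and 14.5 in library 2, a ratio of 2.66 (1.33 to 5.61), which was 4.66 in library 2 alone and 28.4 at a minimum of 1000 genes. No other class was above free RNA for Ppara: inhibitory neurons had 1.34 CPM, striatal projection neurons 1.03, excitatory neurons 0.721, microglia 1.51 and oligodendrocytes 0.354, and neuroblasts and differentiating oligodendrocytes had no UMI. After thinning, 4.85% of astrocytes (2.74 to 7.88%) and 0 of 3046 oligodendrocytes had a Ppara UMI, a count that allows a share of up to 0.0985%. Ppard had 68.1 CPM in microglia (69.2 and 67.2 in libraries 1 and 2) and 55.7 CPM in differentiating oligodendrocytes (85.9 and 39.2), a ratio of 1.22 (0.622 to 2.62). Pparg, the master regulator of fat cells, was highest in neurons. It had 82.1 CPM in excitatory neurons (79.4 and 84.6 in libraries 1 and 2) and 49.8 CPM in inhibitory neurons (51.6 and 48.4), a ratio of 1.65 (1.49 to 1.82). Striatal projection neurons had 5.65 CPM of Pparg and oligodendrocytes 3.90 CPM.

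The liver X receptors, Nr1h2 and Nr1h3, sense oxysterols and switch on cholesterol export. Nr1h2 had 97.4 CPM in astrocytes (132 in library 1 and 91.3 in library 2) and 58.6 CPM in oligodendrocyte precursors (89.2 and 43.6), a ratio of 1.66 (1.01 to 2.77). Nr1h3 had 154 UMIs over the named classes, was above free RNA in none of the 9 classes and reached at most 9.99 CPM, in astrocytes (16.5 and 8.83).

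Both thyroid hormone receptors were abundant, with different orders of classes. Thrb (thyroid hormone receptor beta) was highest in inhibitory neurons at 556 CPM, 578 in library 1 and 539 in library 2. Excitatory neurons had 423 CPM (420 and 426), a ratio of 1.32 (1.27 to 1.36), and oligodendrocytes had the lowest level at 47.1 CPM. Thra (thyroid hormone receptor alpha) was highest in differentiating oligodendrocytes and oligodendrocytes, whose lineage depends on thyroid hormone for maturation. Precursors of that lineage did not share this. After thinning, 8.70% of oligodendrocyte precursors had a Thra UMI, beside 19.8% of differentiating oligodendrocytes, 14.7% of oligodendrocytes and 11.6% of neuroblasts. Differentiating oligodendrocytes had 339 CPM of Thra (358 and 329 in libraries 1 and 2) and oligodendrocytes 312 CPM (303 and 322), a ratio of 1.09 (0.836 to 1.40), so these neighbours did not differ beyond counting error. The lowest level of Thra was 137 CPM in inhibitory neurons. Thra overlaps Nr1d1 on the opposite strand, and in all 12 members overlap a gene of the opposite strand.

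The COUP-TF receptors Nr2f1 and Nr2f2 are orphan receptors that pattern the cortex and guide interneurons from the caudal ganglionic eminence. Nr2f2 was called in inhibitory neurons at 17.7 CPM (15.01 to 20.6, 158 UMIs), 16.4 in library 1 and 18.7 in library 2. The next class, neuroblasts, had 2 UMIs and 5.41 CPM (0.655 to 19.5; 0 and 7.49 in libraries 1 and 2), so the ratio of 3.27 has an interval from 0.890 to 27.2 that includes 1, and with free RNA subtracted it was 17.1. Excitatory neurons had 2.70 CPM, striatal projection neurons 1.28, astrocytes 2.50, oligodendrocyte precursors 3.90, oligodendrocytes 4.61 and microglia 4.54, differentiating oligodendrocytes had no UMI, and only excitatory and inhibitory neurons lay above free RNA. After thinning, 1.16% of inhibitory neurons (0.797 to 1.62%) and 0.112% of excitatory neurons (0.0514 to 0.213%) had a Nr2f2 UMI. Nr2f1 was even between excitatory neurons at 58.7 CPM (59.1 and 58.4 in libraries 1 and 2) and neuroblasts at 56.8 CPM (38.8 and 63.7), a ratio of 1.04 (0.675 to 1.68). Nr2f6 had 37.5 CPM in astrocytes (16.5 and 41.2) and 21.2 CPM in microglia (20.8 and 21.5), a ratio of 1.77 (0.796 to 3.96).

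Nr2e1, also called TLX, is an orphan receptor that keeps neural stem cells dividing. It was called in astrocytes at 84.9 CPM (58.8 to 119, 34 UMIs), with 165 in library 1 and 70.7 in library 2. Differentiating oligodendrocytes came next with 15.2 CPM (3.13 to 44.4) from 3 UMIs, 28.6 in library 1 and 7.84 in library 2, and the ratio was 5.59 (1.76 to 28.4). Oligodendrocyte precursors had 13.7 CPM and inhibitory neurons 5.03 CPM, both above free RNA. The remaining classes were at or under 3.02 CPM, and neuroblasts had no UMI, with a 95% upper bound of 9.97 CPM. Of thinned nuclei, 5.18% of astrocytes (2.99 to 8.27%) and 0 of 8013 excitatory neurons held a Nr2e1 UMI, the latter allowing up to 0.0374%. The testicular receptors Nr2c1 and Nr2c2, orphan receptors related to it, were more even. Nr2c2 had 87.8 CPM in striatal projection neurons (104 and 81.6 in libraries 1 and 2) and 92.3 CPM in microglia (111 and 77.9), the latter not above free RNA. Nr2c1 had 21.0 CPM in inhibitory neurons (24.2 and 18.5) and 45.0 CPM in oligodendrocytes (52.2 and 37.1), again not above free RNA in the latter.

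Among steroid receptors, neither receptor of corticosterone was called in a class. Nr3c1, the glucocorticoid receptor, had 121 CPM in microglia (135 in library 1 and 110 in library 2) and 105 CPM in astrocytes (49.5 and 115), a ratio of 1.15 (0.784 to 1.72). It was above free RNA in 7 of 9 classes and lowest in neuroblasts at 18.9 CPM. Nr3c2, the mineralocorticoid receptor, which binds the same hormone with higher affinity, had 245 CPM in astrocytes (280 and 238) and 217 CPM in striatal projection neurons (204 and 221), a ratio of 1.13 (0.907 to 1.39). The progesterone receptor Pgr had 43.5 CPM in excitatory neurons (43.7 and 43.3) and 38.9 CPM in inhibitory neurons (39.3 and 38.6), a ratio of 1.12 (0.995 to 1.26), while oligodendrocytes had 5.00 CPM. The estrogen receptors were sparse. Esr1 had 18.9 CPM in neuroblasts (0 and 26.2) from 7 UMIs and 16.6 CPM in microglia (17.3 and 16.1) from 11 UMIs. Esr2 had 56 UMIs over the named classes, and excitatory neurons, its only class above free RNA, had 1.07 CPM (0.891 and 1.23), beside 2.70 CPM from 1 UMI in neuroblasts (0 and 3.75).

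The estrogen-related receptors are orphan receptors known for the control of mitochondrial genes. Esrrg was highest in inhibitory neurons at 325 CPM (352 in library 1 and 303 in library 2), with 234 CPM in striatal projection neurons (286 and 214), a ratio of 1.39 (1.29 to 1.499), and lowest in oligodendrocytes at 17.4 CPM. Esrra was more even, with 67.5 CPM in astrocytes (82.4 and 64.8) and 62.0 CPM in microglia (58.8 and 64.5), a ratio of 1.09 (0.643 to 1.81). Esrrb reached 4.58 CPM in inhibitory neurons (6.29 and 3.22) and 10.1 CPM from 2 UMIs in differentiating oligodendrocytes (0 and 15.7), the latter not above free RNA. Nr6a1, the germ cell nuclear factor, had 430 CPM in microglia, 533 in library 1 and 349 in library 2, and 216 CPM in neuroblasts (194 and 225). An antisense gene, Nr6a1os, overlaps it. Nr5a2 had 58 UMIs over the named classes and was above free RNA in none of the classes.

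**Figure D3:**
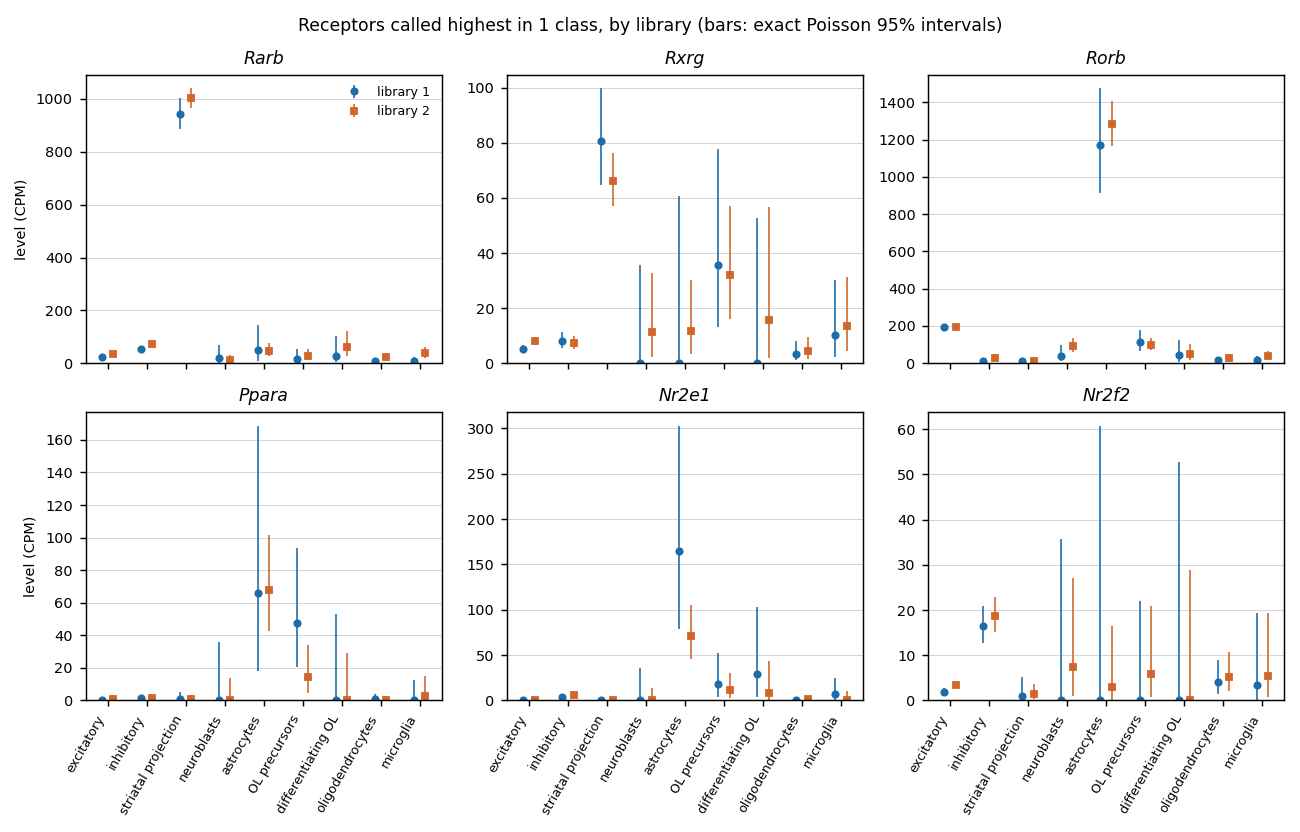
CPM of the 6 receptor genes called highest in 1 class, in each of 9 classes and in each library (circles library 1, squares library 2), with exact Poisson 95% intervals as bars on linear axes that start at 0. Rarb in striatal projection neurons and Rorb in astrocytes stand above all other classes in both libraries, while the astrocyte bars of Ppara and Nr2e1 are wide in library 1, which holds 50 astrocytes.

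Within the neurons, levels differed again between subclasses. Named subclasses of at least 100 nuclei were 6 of excitatory neurons, 4 of inhibitory neurons and both pathways of striatal projection neurons, and 9 more clusters of that size had no name and are called by a leading gene. By the same 2-fold rule among named subclasses, 2 of 27 members tested were called (7.41%), beside 4.45% of 14142 genes. These were Pparg in layer 2/3 excitatory neurons and Esrrb in parvalbumin interneurons. For 12 of the 27 members the highest named subclass was also highest in each library, again without a background share. Pparg had 175 CPM in layer 2/3 (166 to 185), 183 in library 1 and 167 in library 2, and 84.5 CPM in parvalbumin interneurons (81.4 and 87.6), a ratio of 2.07 (1.79 to 2.40). In layer 6 corticothalamic neurons Pparg had 4.87 CPM, in layer 6b 4.70, in layer 5 extratelencephalic neurons 20.7, in the claustrum 28.3, in VIP interneurons 25.5, in LAMP5 interneurons 32.5, in somatostatin interneurons 38.9 and in near-projecting neurons 0. With unnamed clusters added, the excitatory cluster led by Rmst had 133 CPM of Pparg (115 and 149) and that led by Galnt14 106 CPM, the ratio of layer 2/3 to the next group was 1.31, and Pparg was not called. In library 2 alone it was not called either, at 167 against 87.6 CPM. The call of Esrrb rested on 22 UMIs at 8.57 CPM (11.6 and 5.47 in libraries 1 and 2) against 3 UMIs in LAMP5 interneurons (3.48 CPM, 4.55 and 2.37), and its interval of 0.739 to 12.8 includes 1. Esrrb was called in 12 and Pparg in 13 of 18 alternative settings. Among the other named subclasses Esrrb ran from 1.59 CPM in VIP interneurons to 3.41 CPM in layer 6 corticothalamic and layer 5 extratelencephalic neurons, and thinned parvalbumin interneurons held a UMI in 0.267% of nuclei, beside 0.359% of layer 6 corticothalamic neurons.

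Rarb was alike in both striatal pathways. Direct-pathway neurons, which carry dopamine receptor D1, had 1027 CPM (958 and 1057 in libraries 1 and 2), and indirect-pathway neurons, which carry D2, had 1104 CPM (1063 and 1119), a ratio of 1.08 (0.9995 to 1.16). Their thinned shares were 35.0% (31.5 to 38.8%) and 42.7% (37.7 to 47.8%). The direct-pathway group includes a cluster of 160 nuclei (88 in library 1 and 72 in library 2) whose leading genes begin with Gm28928 and Stac. Its median was 1310.5 UMIs, beside 2921 and 3196 in the other direct-pathway clusters. Receptor levels were not computed for that cluster alone, so all direct-pathway values include it. Rarb stayed high in both unnamed striatal clusters, led by Gm16083 at 780.5 CPM and by Adarb2 at 763 CPM. Rxrg had its highest levels in these unnamed clusters: 161 CPM in the Adarb2 cluster (143 and 169) and 130.1 CPM in the Gm16083 cluster (229 and 108), beside 61.6 CPM in indirect-pathway neurons (82.1 and 54.4) and 49.5 CPM in direct-pathway neurons (53.4 and 47.8). Neither named pathway reached 2-fold the 33.2 CPM of Rxrg in oligodendrocyte precursors, the next class when Rxrg was called. Outside the striatal groups the highest level of Rarb was 123 CPM in the claustrum (126 and 121), whose neurons form a thin sheet beneath the insular cortex.

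Rorb and Rora picked out excitatory clusters that have no name. Rorb reached 640.2 CPM in the cluster led by Rmst (1390 nuclei; 659 and 624 in libraries 1 and 2), 346 CPM in the cluster led by Ntng1 (301 and 387) and 298 CPM in the cluster led by Il1rapl2 (285 and 313). The highest named subclass, near-projecting neurons, had 84.8 CPM of Rorb (81.2 and 87.6). Astrocytes, with 1267 CPM of Rorb, were less than 2-fold the level of the Rmst cluster. In 2 of the 9 graph settings a cluster was named layer 4/5 intratelencephalic (1435 and 1388 nuclei), and in both Rorb was among the members called in a subclass. Rora had 2920 CPM in the Ntng1 cluster (2950 and 2892), 1.95-fold (1.84 to 2.08) the next, the cluster led by Fam19a2 at 1494 CPM, and ranged over named subclasses from 312 CPM in layer 6 corticothalamic neurons to 1478 CPM in indirect-pathway neurons. Indirect-pathway neurons exceeded direct-pathway neurons, the Gm28928 cluster included, in Rora by 1.31-fold (1.23 to 1.40).

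Interneuron subclasses separated several receptors. Esrrg had 633 CPM in parvalbumin interneurons (692 and 573 in libraries 1 and 2), the fast-spiking cells, and 367 CPM in near-projecting neurons (337 and 391), a ratio of 1.72 (1.49 to 2.00). In the other interneurons Esrrg was at 115 CPM in VIP, 168 in somatostatin and 185 in LAMP5 cells, and in layer 2/3 at 85.0 CPM. Nr2f2 had 63.7 CPM in VIP interneurons (54.9 and 72.2), 41.8 CPM in LAMP5 interneurons (47.8 and 35.5), 14.97 CPM in somatostatin and 1.95 CPM in parvalbumin interneurons, VIP and LAMP5 cells being those known to come from the caudal ganglionic eminence. The claustrum had 55.6 CPM of Nr2f2 (60.1 and 52.9), while no other excitatory group of at least 100 nuclei exceeded 2.49 CPM. Nr2e1 had 28 of its 42 UMIs over named subclasses in VIP interneurons, at 44.6 CPM (32.3 and 56.5), with 9.29 CPM in LAMP5 interneurons (4.55 and 14.2), a ratio of 4.80 (2.13 to 12.2). Its total was under the limit of 50 UMIs, and with unnamed clusters added it passed that limit and was called. Astrocytes, with 84.9 CPM of Nr2e1, were less than 2-fold the level of VIP interneurons. Nr3c2 was also highest in VIP interneurons, at 357 CPM (336 and 377), with 293 CPM in LAMP5 interneurons (287 and 299), a ratio of 1.22 (1.01 to 1.47), and it was lowest in layer 6b at 36.5 CPM.

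Deep-layer projection neurons differed in their receptors too. Rara had 17.6 CPM in layer 5 extratelencephalic neurons (22.2 and 12.3 in libraries 1 and 2), 1.96-fold (1.21 to 3.29) the 8.98 CPM of somatostatin interneurons, just under the limit. With unnamed clusters added, the next group for Rara was the Galnt14 cluster at 10.6 CPM, and the ratio was 1.66 (1.08 to 2.56). Thrb had 775 CPM in parvalbumin interneurons (759 and 791) and 664 CPM in layer 5 extratelencephalic neurons (707 and 615), with 199.8 CPM in layer 6 corticothalamic neurons and 169 CPM in the claustrum. Over named subclasses Nr3c1 ran from 48.7 CPM in somatostatin interneurons to 106 CPM in layer 6b (121 and 87.1). Over named subclasses Pgr ran from 29.2 CPM in parvalbumin interneurons to 57.4 CPM in layer 6b (49.1 and 68.7), and the unnamed Il1rapl2 cluster had 58.8 CPM. For Pgr the ratio of layer 6b to the next named subclass was 1.22 (0.934 to 1.58), an interval that includes 1. Esr1 had 22.0 CPM in the unnamed inhibitory cluster led by Meis2 (22.5 and 21.8), the highest of the 21 neuronal groups of at least 100 nuclei, and 9.92 CPM in layer 6b (9.09 and 11.04). In Esr1 layer 6b was 1.23-fold (0.691 to 2.08) the next named subclass, layer 2/3, again with 1 in the interval. Esr2 had 7 of 19 UMIs over named subclasses in the claustrum, at 7.34 CPM (8.59 and 6.61). The orphan receptors Nr2c2 and Nr6a1 and the receptor Thra varied by less than 2-fold over named subclasses, from 61.5 to 101 CPM, from 132 to 252 CPM and from 114 to 183 CPM.

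**Figure D4:**
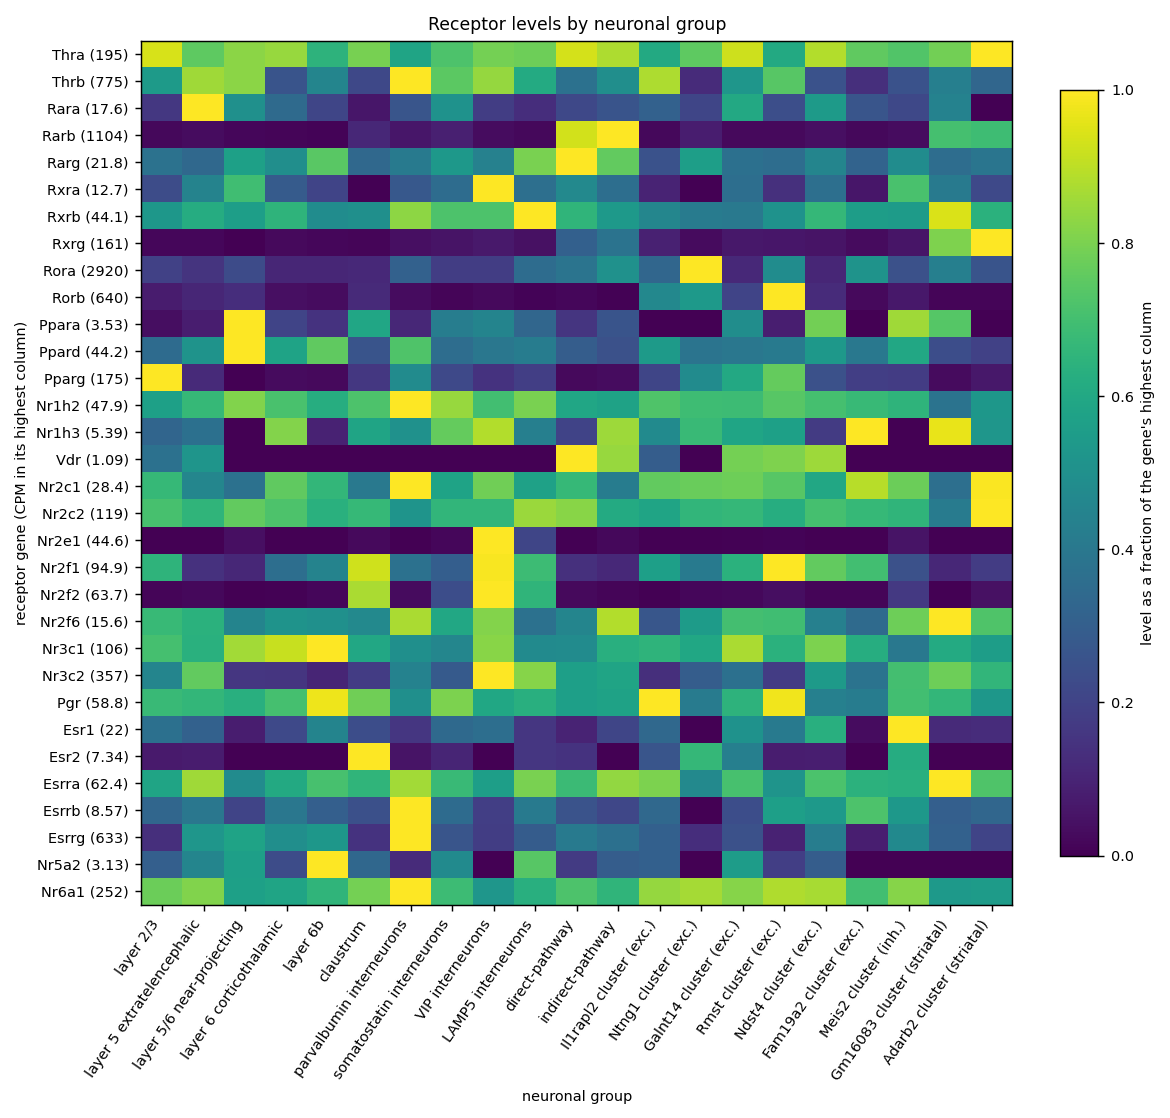
Level of each of the 32 receptor genes (rows) in 12 named neuronal subclasses and 9 unnamed clusters of at least 100 nuclei (columns, unnamed clusters by a leading gene), as a fraction of the gene's highest column, whose CPM stands beside the symbol. Rarb is bright only in the 4 striatal groups, Rorb in the Rmst cluster, Esrrg in parvalbumin interneurons and Nr2e1 in VIP interneurons.

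**Figure D5:**
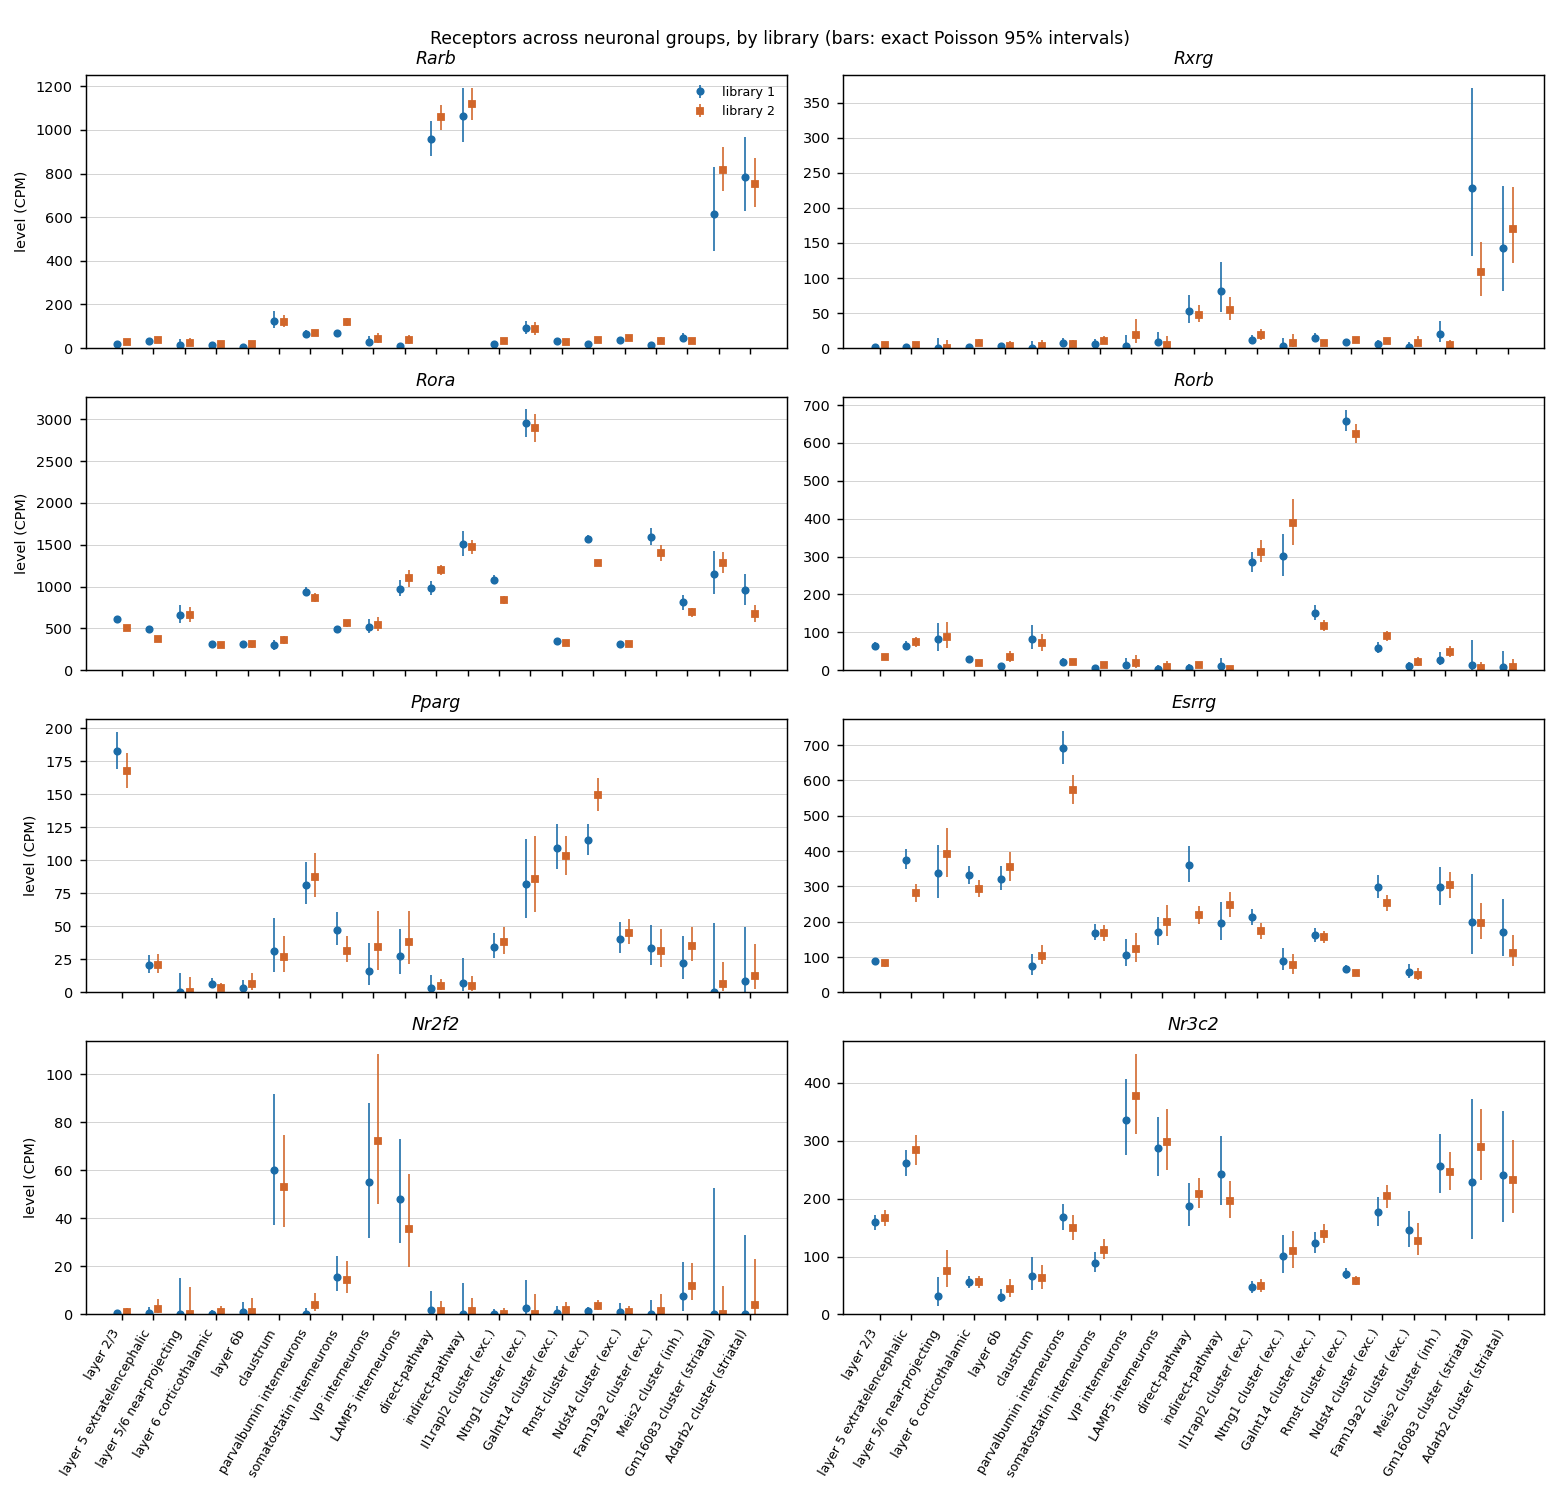
CPM of 8 receptor genes in the same 21 neuronal groups, for library 1 (circles) and library 2 (squares), with exact Poisson 95% intervals as bars on linear axes that start at 0. Rarb is highest in the 4 striatal groups in both libraries, Esrrg in parvalbumin interneurons and Rorb in the Rmst cluster, and Rxrg is highest in the unnamed striatal clusters at 161 and 130.1 CPM.

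The libraries, whose groups are unknown, were compared class by class. Library 2 against library 1, 2 of 27 members with at least 50 UMIs in excitatory neurons differed by at least 1.5-fold with an interval without 1, beside 7.42% of genes. These were Rxrg (5.29 and 7.96 CPM in libraries 1 and 2, a ratio of 1.51, 1.16 to 1.97) and Nr2f2 (1.89 and 3.44 CPM, 1.82, 1.19 to 2.83). In inhibitory neurons 1 of 24 differed (8.68% of genes), Rorb with 13.6 and 26.7 CPM and a ratio of 1.97 (1.42 to 2.75). In striatal projection neurons 1 of 17 differed (11.2% of genes), Nr2c1 with 34.8 and 10.9 CPM and a ratio of 0.315 (0.189 to 0.522). In oligodendrocytes 0 of 13 did (20.8% of genes). In microglia 3 of 6 did (27.4% of genes): Nr6a1 with 533 and 349 CPM, Rora with 83.0 and 140 CPM and Thra with 104 and 188 CPM. With 1 library per group, treatment and every other difference between the libraries cannot be told apart.

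Genes that supply ligands to the receptors were read by the same 2-fold class rule, which called 15.2% of all genes tested in some class and 2.52% in astrocytes. Of 8 tested genes of retinoid supply and breakdown 1 was called, a share near that background: Aldh1a1, which makes retinoic acid, at 89.9 CPM in astrocytes (49.5 and 97.2 in libraries 1 and 2), 4.70-fold the next class (2.99 to 7.30). Of 5 genes of thyroid hormone transport and deiodination 2 were called, Slco1c1, a thyroxine transporter, at 650 CPM in astrocytes (80.1-fold, 27.1 to 391) and Dio2, which activates thyroxine, at 77.4 CPM (6.61-fold, 2.72 to 19.4). The next class for Slco1c1 was neuroblasts at 8.11 CPM, and endothelial cells, under 100 nuclei, were not among the classes compared. Of 10 glucocorticoid genes 2 were called, again near the background. Hsd11b1, which regenerates corticosterone, had 62.5 CPM in astrocytes (5.90-fold, 2.48 to 16.2). Fkbp5, a chaperone gene switched on by the glucocorticoid receptor, had 269 CPM in microglia (3.39-fold, 2.77 to 4.15), but 477 in library 1 and 107 in library 2. None of 7 tested genes of steroid and oxysterol synthesis was called.

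Of the coregulators, 0 of 13 coactivators and 2 of 11 corepressors were called, beside 15.2% of all genes tested. The corepressors were Nrip1 in microglia at 296 CPM (356 and 250 in libraries 1 and 2; 4.83-fold, 4.08 to 5.70) and Bcl11b, a factor of striatal and deep-layer neurons that binds COUP-TF receptors, in striatal projection neurons at 317 CPM (349 and 304; 3.34-fold, 3.06 to 3.65). Among 9 tested targets of LXR and PPAR receptors 1 was called, also near that share: Mylip, which lowers the LDL receptor, in microglia at 216 CPM (232 and 204; 9.41-fold, 7.83 to 11.2). Median ratios of the highest to the next class over these lists ran from 0.841 to 1.59, beside 1.11 over all genes tested. These medians again include genes above free RNA in no class, with excitatory neurons as a stand-in. Crabp2 and Stra6 are such genes in the retinoid list, which has the lowest median.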

How the data were processed

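Per the labels' protocols, nuclei from an iodixanol gradient went through 10x 3′ chemistry and Illumina sequencing. Cell Ranger 1.3.0, Seurat 3.1.4 and the build mm10 are listed per the submitters' processing notes, while per the file headers the matrix was written by software version 3.1.0. What the authors deposited are UMI counts, as whole numbers, for every gene in every barcode. Filters by the authors are not given in the sources used here. The members and lists were chosen with earlier results of these data known.

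A minimum of 500 genes per barcode was set, and doublets were removed within each library (Scrublet in Scanpy 1.11.5). Counts scaled to 10000 were log-transformed, and 3000 variable genes without members gave 50 principal components and Leiden clusters at resolution 1 from 20 neighbours. A cluster took the name of the list with the highest score, at least 1.5 times every other, with at least 3 markers at 20 CPM and 25% of the highest cluster. Unnamed clusters were clustered again at resolution 0.5. These naming rules were revised after clusters were seen, among them a rule on layer names that rests on an item not reported here, and that 4 shared leading genes of another class bar a name. The graph setting was the 1 of 9 (3 seeds, 15 to 30 neighbours) that left the fewest nuclei unnamed; across all 9, between 3.33% and 8.72% of nuclei had no name, and no member value entered the choice.

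Genes named in the text were all members, with full values for called ones, and called list genes. Without replicates, no test was run. As a measure of free RNA, each class had an index, its Slc17a7 CPM (in excitatory neurons, myelin-gene CPM times a reference ratio). For each gene the upper Poisson bound was divided by this index in classes of at least 200000 UMIs, and the smallest quotient times the index was its free RNA level. It is an upper limit, since even expression counts as free RNA. A count of 0 is given with the limit that 3 counts allow. The call rule was run on simulated Poisson counts, in which 200 well-counted genes were raised 4-fold in 1 class or subclass. No free RNA level was applied there, and calls near 2-fold or on few UMIs were not covered. Alternatives used other filters, doublets kept, resolution 2, free RNA subtracted, single libraries, edgeR 4.0.16 TMM factors, 20 UMIs, 1.5-fold and no thinning.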

Additional observations from a re-analysis of the deposited data

How the results depend on the processing

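Over 9 planned and 8 added settings, the count of members called highest in a class ran from 5 to 9, with 6 in the setting used, and Rarb was called in striatal projection neurons in all 17. Rorb, Ppara and Nr2e1 lost their astrocyte call with library 1 alone, where astrocytes number 50, and in 1 graph setting in which no class was named astrocytes. Nr2f2 lost its call with a minimum of 1000 genes and in 1 graph setting. At 1.5-fold Nr1h2, Nr6a1 and Pparg were added. Members were also gained at the 2-fold limit. Esr1 was gained at resolution 2, in library 1 alone, at Leiden seed 1 with 15, 20 and 30 neighbours and at seed 2 with 15. Nr6a1 was gained in library 1 alone and at seeds 0 and 1 with 15 neighbours. Esr2 was gained at seeds 0 and 2 with 30 neighbours, Nr1h2 with free RNA subtracted, and Rarg and Esrrb in library 1 alone.

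Among neuronal subclasses 2 members were called; library 2 alone called 0, the 1.5-fold limit 4, and unnamed clusters as groups 1, as did Leiden seed 1 with 15 neighbours. Pparg and Esrrb were both lost in library 2 alone, with unnamed clusters as groups and at Leiden seeds 1 and 2 with 15 neighbours. Pparg was also lost at resolution 2, and Esrrb in library 1 alone and with TMM factors. Rara was gained at a minimum of 1000 genes, with doublets kept, with free RNA subtracted and in library 1 alone. It was also gained with TMM factors, at 1.5-fold and in some graph settings, but not in library 2 alone, at resolution 2 or in the other graph settings. Rorb was gained at resolution 2 and at Leiden seeds 1 and 2 with 15 neighbours. Without thinning, shares of nuclei with a UMI were 83.9% for Rarb and 16.1% for Rxrg in striatal projection neurons, 72.5% for Rorb and 11.003% for Nr2e1 in astrocytes, 4.69% for Nr2f2 in inhibitory neurons, 51.4% for Pparg in layer 2/3 and 2.94% for Esrrb in parvalbumin interneurons. Of 189 ratios of single members under the planned settings, 154 stayed within the interval of the value used, 35 lay outside it and 61 were below 1. The minimum of 1000 genes moved the most, with 13 of 26 ratios outside the interval, beside 1 of 29 at resolution 2 and at most 5 in any other setting. Because the class was missing or under 100 nuclei, 3 ratios could not be formed at a minimum of 1000 genes, 10 in library 1 alone and 1 in library 2 alone. Depth limits Vdr, Esr2 and Nr5a2 most, with 23, 56 and 58 UMIs over the named classes, while the called Ppara and Nr2e1 rest on 87 and 101. No paired analysis was possible because no label ties a library to a group.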
